A study of Mus musculus with 12 samples.

Results

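The phagocyte NADPH oxidase was followed through 7 genes in injured mouse cortex: Cybb and Cyba, which encode the paired membrane subunits, Ncf1 and Ncf4, which encode cytosolic subunits, Rac2, which encodes the GTPase partner, Hvcn1, which encodes a proton channel that works beside the enzyme, and Nox4, which encodes another catalytic subunit that also pairs with the Cyba product. The 7 genes were chosen by name, as parts of the enzyme and its close partners, from 35697 identifiers in the table of the 2018 batch and 55637 in the table of the 2022 batch, and all 7 passed the filter on low counts in both. Earlier results of these data were known when they were chosen, so the shares over all genes given beside them are a description. The samples were cortex RNA from 12 adult male C57BL/6J mice of 20 to 25 g, in 4 groups of 3. Names of the 2018 samples carry the mark WT (wild type), and those of the 2022 samples carry no such mark. In the 2018 batch, sham mice, which had the surgery without the impact, were set against mice at 7 days after traumatic brain injury (TBI) by controlled cortical impact with a 3 mm tip at 1.5 m/s, 1.5 mm deep, with a dwell of 100 ms. In the 2022 batch all mice had TBI, and 3 of them received zileuton, an inhibitor of 5-lipoxygenase, at 10 mg/kg per day in corn oil by intraperitoneal injection that began after the injury. The other 3 are labelled only as TBI; the study describes its controls for the drug as vehicle-treated, and they are called vehicle here. The names of the zileuton samples give 7 days, whereas their source labels give 7, 8 and 9 days. There was no sham group in the 2022 batch and both of its groups carried the injury, so levels were compared only within a batch.

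The enzyme moves electrons from cytosolic NADPH across a membrane onto oxygen and so makes superoxide. In a resting phagocyte the membrane pair of the Cybb product (gp91phox, or NOX2) and the Cyba product (p22phox) is idle, and activity begins when the cytosolic subunits and GTP-bound Rac dock onto it. Neutrophils, monocytes, macrophages and microglia carry the enzyme, and in the brain it is best known as a microglial and infiltrating-myeloid source of oxidants.

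Where the members lie was taken from GENCODE on GRCm38, not from the build named in the processing notes. Cybb spans chrX:9435252-9487771 on the minus strand, Cyba chr8:122424776-122432930 on the minus strand, and Ncf1 chr5:134220053-134229625 on the minus strand. Ncf4 spans chr15:78244801-78262580 on the plus strand and Rac2 chr15:78559167-78572783 on the minus strand. Hvcn1 spans chr5:122206804-122242297 on the plus strand and Nox4 chr7:87246096-87398710 on the plus strand. All are protein-coding. Exons of Ncf1 share 408 bases with exons of Gtf2ird2 on the opposite strand, and exons of Hvcn1 share 1574 bases with exons of Tctn1. Whether the counting used strand is not given in the sources used here, so reads of these partners cannot be told apart there. Gtf2ird2 was at 15.5 ± 0.791 CPM (SD, n = 3) in sham and 13.8 ± 0.806 (SD, n = 3) after TBI, and Tctn1 at 12.4 ± 0.907 (SD, n = 3) and 12.8 ± 3.23 (SD, n = 3). Neither passed the test (edgeR, adjusted p = 0.259 and 0.881).

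RefSeq promoter windows of 300 bases, from 250 before the annotated start to 50 after it on GRCm38.p6, were held for 4 of the 7 members: Cybb, Cyba, Ncf1 and Nox4. The windows of both catalytic subunits are shown because these genes had the largest and the smallest rise of the 7 after TBI. Printed here are the 250 bases before the start and the first 25 from it, at chrX:9469300-9469574 on the minus strand for Cybb and chr7:87246399-87246673 on the plus strand for Nox4. Both windows lie inside the GENCODE spans above, which begin at 9487771 for Cybb and 87246096 for Nox4. The RefSeq start used is thus not the outermost GENCODE start of either gene. Capitals mark matches on either strand to GAGGAA (the PU box of myeloid Ets factors), the core of an interferon response element (GAAA, 2 bases of any kind, GAAA) or TGANTCA (the AP-1 site), and no match overlaps another.
Cybb: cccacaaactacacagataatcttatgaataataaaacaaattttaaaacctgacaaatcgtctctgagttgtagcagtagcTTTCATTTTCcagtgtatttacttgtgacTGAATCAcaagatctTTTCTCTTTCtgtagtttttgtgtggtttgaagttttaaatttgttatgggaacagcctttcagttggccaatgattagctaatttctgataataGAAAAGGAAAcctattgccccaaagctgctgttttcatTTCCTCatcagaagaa
Nox4: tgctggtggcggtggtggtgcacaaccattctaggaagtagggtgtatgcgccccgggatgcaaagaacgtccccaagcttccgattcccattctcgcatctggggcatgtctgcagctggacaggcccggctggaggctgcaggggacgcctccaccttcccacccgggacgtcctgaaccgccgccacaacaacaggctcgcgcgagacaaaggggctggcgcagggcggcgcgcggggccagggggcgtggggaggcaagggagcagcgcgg
The Cybb window held 1 GAGGAA, read on the strand opposite to the gene and beginning at base 10 counted from the start. It also held 3 interferon response cores and 1 TGANTCA, all before the start. The Nox4 window held none of the 3 motifs, and neither did that of Cyba. The Ncf1 window held 1 interferon response core, 82 bases before its start. Of 32851 RefSeq promoters of the same length, 28.3% held GAGGAA, 3.44% the interferon response core and 7.81% TGANTCA. These are letter matches only.

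The 2018 libraries held 42929862 to 48684674 counts and the 2022 libraries 27845562 to 35453257. Levels below are counts per 1e+06 counts (CPM) of the library size scaled by edgeR's TMM factors. The test is edgeR's quasi-likelihood test over all genes that passed the filter, with Benjamini-Hochberg adjustment and a threshold of 0.05. The 3 mice of a group are separate animals. In bulk cortex, a change in the number of cells that carry a transcript and a change in the RNA of each cell cannot be told apart.

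All 7 oxidase genes were higher after TBI than in sham, and in none of them did the groups overlap. By adjusted p, 28.0% of the 19536 genes tested were called in either direction and 16.8% were called higher. With or without a call, 24.6% of all genes tested had every TBI library above every sham library, as all 7 members did. The median log2 fold change of the 7 was 3.30, beside 0.02 over all genes tested. At least a 2-fold rise that passed the test was found for 8.73% of all genes, and for each of the 7 members.

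Cybb, the catalytic subunit of the phagocyte enzyme, rose most. Its counts were 30, 24 and 33 in the sham libraries and 1060, 991 and 1095 in the TBI libraries, or 0.666, 0.519 and 0.694 CPM against 21.5, 20.3 and 25.4. The sham cortex thus had a low but counted level in every mouse, and the lowest TBI library was far above the highest sham library. The mean went from 0.626 ± 0.0943 (SD, n = 3) to 22.4 ± 2.65 CPM (SD, n = 3), 35.7-fold, with a log2 fold change of 5.16 (SE 0.175, edgeR adjusted p = 2.1e-06).

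Nox4, a constitutively active relative of Cybb that makes mainly hydrogen peroxide and is known from vessel wall and kidney, rose least and was the rarest of the 7. Its counts were 14, 13 and 16 in sham and 42, 48 and 44 after TBI. The groups were well apart, although each library held few counts. Its mean was 0.309 ± 0.0279 CPM in sham (SD, n = 3) and 0.953 ± 0.0883 after TBI (SD, n = 3), 3.06-fold, with a log2 fold change of 1.61 (SE 0.339, edgeR adjusted p = 0.008).

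Cyba, whose product stabilizes both catalytic subunits in the membrane, had 276, 243 and 287 counts in sham and 2497, 2380 and 3088 after TBI. This was 6.13, 5.25 and 6.04 CPM against 50.7, 48.8 and 71.7, with TBI replicate 3 well above the other 2 TBI libraries. The change was 9.83-fold, from 5.81 ± 0.481 (SD, n = 3) to 57.1 ± 12.7 CPM (SD, n = 3), and 3.30 on the log2 scale (SE 0.165, edgeR adjusted p = 7.52e-06).

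Among the cytosolic subunits, Ncf1, the organizer p47phox whose phosphorylation starts assembly, was at 6.86, 8.13 and 5.93 CPM in sham and 32.7, 39.2 and 51.1 after TBI. Its rise of 5.88-fold was smaller than that of its partners other than Nox4 (log2 fold change 2.56, SE 0.184, edgeR adjusted p = 2.84e-05). Ncf4, p40phox, which binds a phagosomal lipid and sustains the enzyme there, was at 0.688, 0.411 and 0.631 CPM in sham and 4.67, 6.42 and 8.19 after TBI. It rose 11.1-fold with a wider error (log2 fold change 3.47, SE 0.3, edgeR adjusted p = 7.24e-05). Relative to their mean, its 3 TBI libraries were spread more than those of Cybb.

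Rac2, the Rac GTPase of blood cells, was at 1.6, 2.08 and 1.89 CPM in sham and 18.1, 24.3 and 33.8 after TBI. It rose 13.7-fold, the next-largest estimate after Cybb (log2 fold change 3.77, SE 0.244, edgeR adjusted p = 1.78e-05). Hvcn1, whose proton current offsets the charge that the oxidase moves, was at 1.2, 0.843 and 1.09 CPM in sham and 6.4, 7.25 and 10.7 after TBI. It rose 7.74-fold (log2 fold change 2.95, SE 0.259, edgeR adjusted p = 7.81e-05). TBI replicate 3 had the highest CPM of its group in all 7 genes, and TBI replicate 1 the lowest in 5. All 7 still passed with any 1 of the 6 libraries left out.

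**Figure D1:**
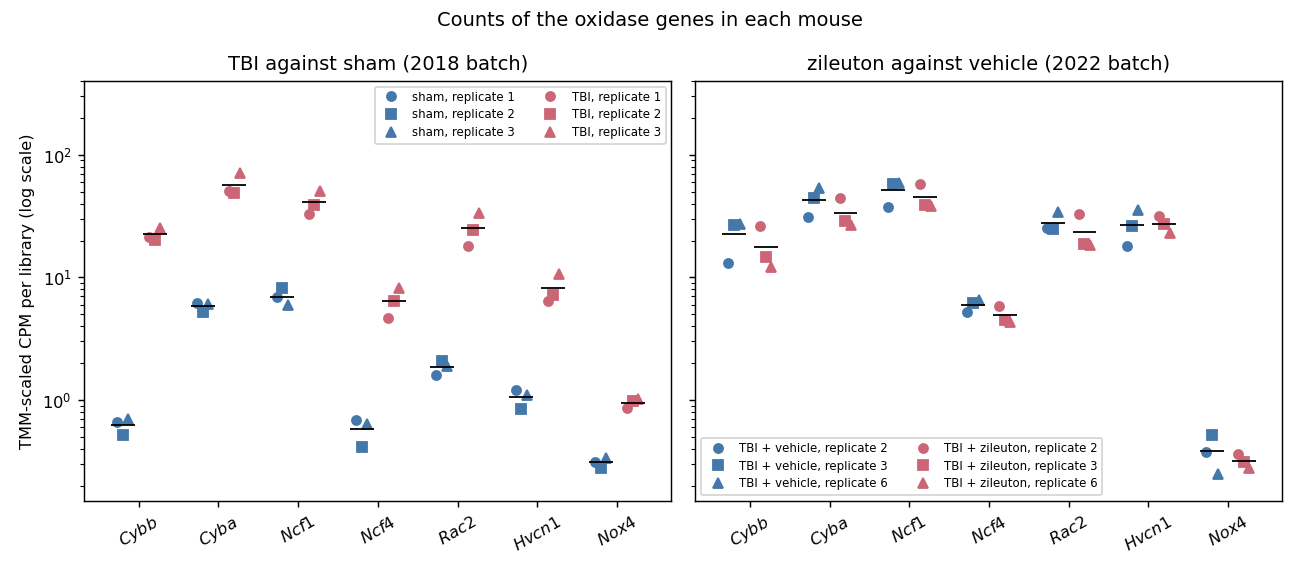
TMM-scaled CPM of the 7 oxidase genes in each of the 12 libraries on a log axis, in the 2018 batch (left) and the 2022 batch (right), with 1 point per mouse, a marker shape per replicate number and a black line at the group mean. After TBI every point lay above every sham point in all 7 genes, whereas vehicle and zileuton points overlapped in all 7.

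The members did not change by equal amounts. Per length, in the deposited FPKM, the order in sham was Cyba (5.48 ± 0.441), Ncf1 (1.87 ± 0.296), Rac2 (0.587 ± 0.0788), Hvcn1 (0.288 ± 0.0493), Ncf4 (0.28 ± 0.0703), Cybb (0.106 ± 0.0158) and Nox4 (0.0359 ± 0.00325; SD, n = 3 for each). Hvcn1 and Ncf4 overlapped between libraries, and the other neighbours in that order did not. After TBI the order was Cyba (55.8 ± 11.6), Ncf1 (11.4 ± 2.49), Rac2 (8.33 ± 2.52), Cybb (3.93 ± 0.407), Ncf4 (3.24 ± 0.868), Hvcn1 (2.31 ± 0.624) and Nox4 (0.115 ± 0.011; SD, n = 3 for each). Ncf1 overlapped with Rac2, Cybb with Ncf4 and Ncf4 with Hvcn1. Cybb thus passed from below Ncf4 and Hvcn1 in sham to above Hvcn1 in all TBI libraries. Of the summed FPKM of the 7 genes, Cybb made up 1.22% ± 0.158 in sham and 4.68% ± 0.516 after TBI (SD, n = 3). Ncf1 made up 21.7% ± 3.98 and then 13.4% ± 0.961 (SD, n = 3), while Cyba held most of the sum in both groups, at 63.3% ± 3.46 and 65.7% ± 2.55 (SD, n = 3).

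Within each library the FPKM of each member was also set against that of Cyba, the shared partner. Relative to Cyba, Cybb was higher after TBI by 1.89 on the log2 scale, with ratios of -5.82 to -5.6 in sham and -3.98 to -3.72 after TBI. Ncf1 fell by 0.73 relative to Cyba in the mean, Hvcn1 by 0.34 and Nox4 by 1.66, all with no overlap between the groups. For each of these 4 the two-sided exact permutation test gave p = 0.1, the smallest it can give with 3 against 3, and 0.15 after adjustment over the 6 members compared. This test cannot reach the threshold in such a design. The ratio of Rac2 (0.46, exact p = 0.2) and of Ncf4 (0.20, exact p = 0.4) to Cyba overlapped between sham and TBI.

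**Figure D2:**
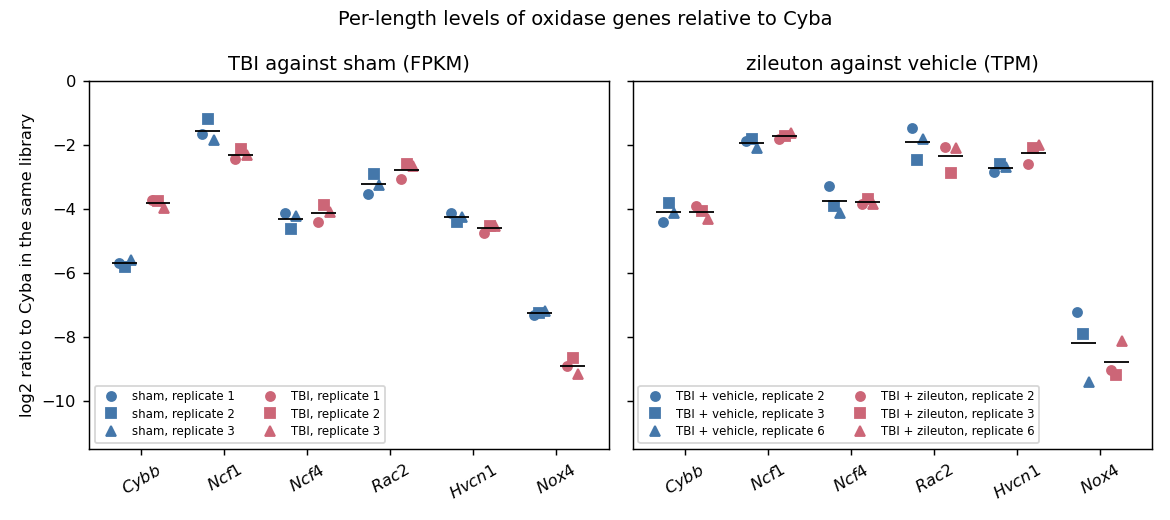
log2 ratio of the per-length level (FPKM on the left, TPM on the right) of 6 oxidase genes to that of Cyba in the same library, with 1 point per mouse and a black line at the group mean. From sham to TBI the Cybb points moved up by 1.89 and the Nox4 points down by 1.66 with no overlap, while in the 2022 batch Hvcn1 alone had no overlap.

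Other genes of the enzyme and of its family came from a list of 13, of which 7 passed the filter on low counts; the 6 at low counts were Nox1, Nox3, Duox1, Duox2, Duoxa2 and Noxa1. Of the 7, 3 rose, none fell and 4 did not pass, and the median log2 fold change was 0.37. Over all genes tested, 16.8% were called higher. Nrros, which limits the amount of the Cybb product in phagocytes, rose 2.68-fold, from 6.41 ± 0.781 to 17.2 ± 5.53 CPM (SD, n = 3; edgeR adjusted p = 0.00175). Nrros missed the adjusted threshold when an equal-variance two-sample test was run on FPKM (adjusted p = 0.0877, Benjamini-Hochberg over all genes).

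The small GTPases and the chaperone moved less. Rap1a, a GTPase that copurifies with the membrane pair, rose 1.41-fold (edgeR adjusted p = 0.000935). Rac1, the widely expressed Rac, went from 202 ± 7.94 to 239 ± 13.9 CPM (SD, n = 3), 1.18-fold (edgeR adjusted p = 0.04). That call was lost in 6 of 13 alternatives and in 5 of the 6 fits with a library left out, including each sham library in turn (adjusted p = 0.0751, 0.166 and 0.138). Cybc1, the chaperone of the membrane pair, had a log2 fold change of 0.37 and missed the threshold (edgeR adjusted p = 0.056), which it passed in 4 of the 13 alternatives and without sham replicate 2 (adjusted p = 0.0205). Noxo1, an organizer of the epithelial enzyme (log2 fold change 0.76), Duoxa1, a maturation factor of the dual oxidases (-0.44), and Rac3, the neuronal Rac (-0.21), did not pass. Exons on the opposite strand share 2309 bases with those of Rac1, 2122 with Noxo1, 682 with Duoxa1 and 68 with Cybc1, so these counts carry the same uncertainty as those of Ncf1 and Hvcn1.

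**Figure D3:**
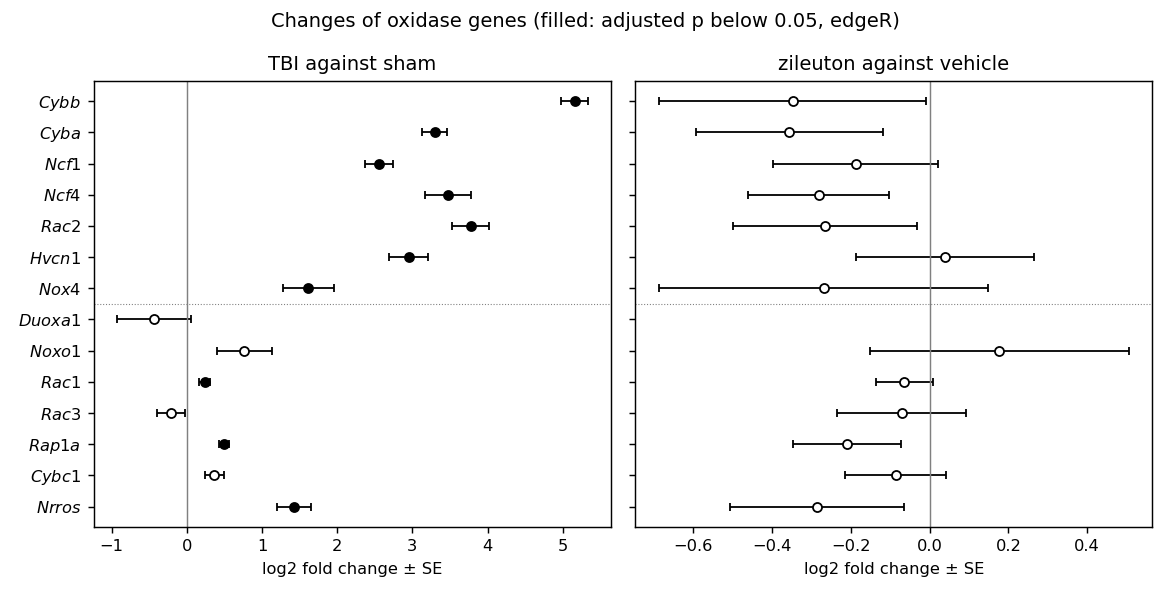
log2 fold change with its standard error (bars) for the 7 members, above the dotted line, and for tested genes of the oxidase family, below it, after TBI against sham (left) and with zileuton against vehicle (right). Filled points passed an adjusted p of 0.05 in edgeR. The panels have different horizontal scales, and all filled points are in the left panel, from 0.24 for Rac1 to 5.16 for Cybb.

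Upstream of the enzyme, receptors, kinases and exchange factors that prime or start assembly were taken from a list of 26, all tested. After TBI 20 rose, 2 fell and 4 did not pass, with a median log2 fold change of 1.76. Of all genes tested, 16.8% were called higher and 11.2% lower. Clec7a, the beta-glucan receptor dectin-1, had 6, 10 and 2 counts in sham and 1475, 1494 and 1806 after TBI (log2 fold change 8.01, SE 0.317, edgeR adjusted p = 2.86e-06). Fpr2, a formyl peptide receptor, had 0, 0 and 2 counts in sham and 31, 18 and 36 after TBI. Genes with a higher sham level rose as well, with log2 fold changes of 3.98 (SE 0.25) for the complement receptor C5ar1, 3.27 (SE 0.229) for the integrin chain Itgb2 and 2.74 (SE 0.235) for the kinase Btk. The 2 that fell were protein kinase C genes: Prkcb, which phosphorylates the Ncf1 product in phagocytes and is also abundant in neurons, at 526 ± 31.9 CPM in sham and 343 ± 19.6 after TBI (SD, n = 3; log2 fold change -0.62), and Prkcz (log2 fold change -0.44).

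Genes that act on the products of the enzyme moved less. Of 15 genes for superoxide and peroxide handling, 14 were tested, 7 rose, none fell and 7 did not pass. Their median log2 fold change was 0.31, and 16.8% of all genes tested were called higher. Prdx6, a peroxiredoxin that also binds the oxidase, rose 2.75-fold, from 188 ± 25.2 to 518 ± 54.6 CPM (SD, n = 3; edgeR adjusted p = 4.86e-05). The extracellular superoxide dismutase Sod3 rose 2.08-fold, Prdx1 1.66-fold and catalase (Cat) 1.6-fold. Epx, eosinophil peroxidase, had 8, 20 and 4 counts in sham and 34, 34 and 39 after TBI (edgeR adjusted p = 0.047), a call held in 6 of 9 alternatives and in 1 of 6 fits with a library left out; the adjusted p was 0.148 without sham replicate 1 and 0.126 without sham replicate 3. Sod1 (log2 fold change 0.05), Sod2 (-0.22) and Nos2 (0.29) did not pass.

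Of 9 genes that supply NADPH or its glucose phosphate, all tested, 7 rose, none fell and 2 did not pass. Their median log2 fold change was 0.55, and 16.8% of all genes tested were called higher. The hexokinases Hk3, which is largely a blood-cell form, and Hk2 rose 5.68-fold and 3.5-fold. The pentose phosphate enzymes G6pdx (1.57-fold), Pgd (1.62-fold) and Taldo1 (1.47-fold) rose by smaller amounts, and the transketolase gene Tkt, at a log2 fold change of 0.05, did not pass. Opposite-strand exons share 418 bases with those of G6pdx and 34 with those of Hk3, so these counts carry the same uncertainty as that of Ncf1.

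Markers of the cells that carry the enzyme rose in the same libraries, and their part in the rise of the oxidase genes was not tested. Beside the marker counts below, 16.8% of all genes tested were called higher. The summed CPM of the 7 oxidase genes was 16.6 to 17.5 in sham and 135 to 202 after TBI. The sum of 7 microglia markers went from 245 to 279 in sham to 671 to 793 after TBI, and all 7 rose, with a median log2 fold change of 0.94. Csf1r (3.5-fold) and Cx3cr1 (3.75-fold) rose most and make up most of the sum after TBI, and P2ry12 rose least (1.24-fold). The sum of 6 activated macrophage markers went from 16.2 to 18.3 to 353 to 564, and all 6 rose (Gpnmb 97.4-fold, Cd68 12.3-fold, Lgals3 108-fold). All 5 monocyte markers rose, with a median log2 fold change of 5.53. Their sum, most of it Vcan (1.6-fold), was 24.8 to 28.3 CPM in sham and 45.3 to 66 after TBI, while Ccr2 rose 17.9-fold, Ly6c2 46.3-fold, Plac8 61.9-fold and Chil3, from 0 to 2 counts a library, to between 52 and 154. Of 9 neutrophil markers 6 were tested and 5 rose, with sums of 0.799 to 1.41 and 17.3 to 66.3. S100a8 (5.98, 10.2 and 25.4 CPM after TBI) and S100a9 (8.82, 14.1 and 31.1 CPM) made up most of the sum after TBI. Of the defining neutrophil genes, Ly6g, Camp and Elane had at most 12 counts in any library, whereas Cxcr2 went from 0 counts in every sham library to 46, 103 and 140 after TBI and Mmp8 from at most 2 counts to 54, 40 and 170. S100a9, which monocytes also carry, had 12, 6 and 24 counts in sham and 434, 685 and 1341 after TBI. Ltf, with 4, 14 and 6 counts in sham and 8, 10 and 38 after TBI, did not pass (edgeR adjusted p = 0.277). TBI replicate 3, highest in all 7 oxidase genes, also had the highest sum of each of these 4 marker lists. This was not particular to them, as it was highest for astrocyte, mural cell and fibroblast, and red cell markers too. It was not highest for neuronal, oligodendrocyte, endothelial, T cell or B cell markers.

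Markers of other cells moved too, where 16.8% of all genes tested were called higher and 11.2% lower. The sum of 6 neuronal markers was 6670 to 7290 CPM in sham and 4060 to 5250 after TBI, with 4 of 6 called lower. All 4 astrocyte markers, 4 of 5 endothelial markers, 6 of 7 mural cell and fibroblast markers and 3 of 4 oligodendrocyte markers were called higher. Of T cell markers 1 of the 3 tested was called higher, of B cell markers 1 of 2, and 3 of 5 red cell markers were called lower.

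**Figure D4:**
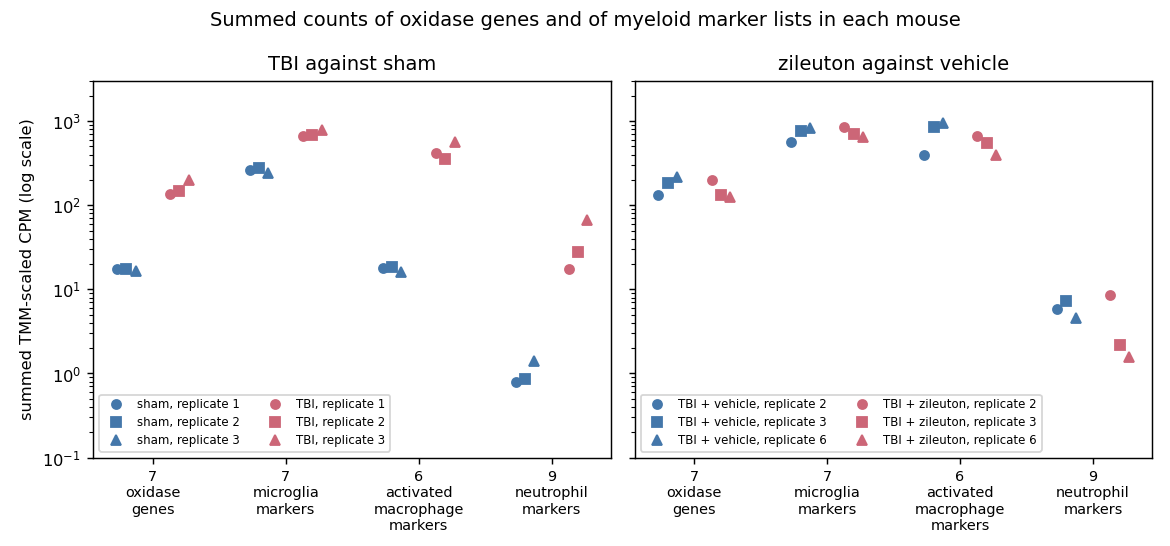
Summed TMM-scaled CPM on a log axis of the 7 oxidase genes and of the microglia, activated macrophage and neutrophil marker lists, with 1 point per mouse in the 2018 batch (left) and the 2022 batch (right). From sham to TBI every sum rose without overlap; in the 2022 batch the oxidase sum ran from 124 to 216 CPM, with zileuton replicate 2 among the vehicle mice in the oxidase and activated macrophage sums and above them in the other 2.

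The comparison of zileuton with vehicle asked whether 5-lipoxygenase inhibition altered the injured cortex. None of the 7 oxidase genes passed the test, and in all 7 the vehicle and zileuton libraries overlapped. With edgeR no gene of 17363 tested was called (0%), 6.83% had an unadjusted p under 0.05, 13.6% had groups that did not overlap, and DESeq2 called 28 genes, none of them a member. None of the 7 members had an unadjusted p under 0.05, and their adjusted p ran from 0.739 for Ncf4 to 0.971 for Hvcn1. Of the 7, 6 had a log2 fold change below 0, as did 49.3% of all genes tested, and the median of the 7 was -0.27 beside 0.00 over all genes.

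Cybb was at 13.2, 27 and 27.2 CPM in vehicle libraries 2, 3 and 6 and at 26.1, 14.7 and 12.2 in zileuton libraries 2, 3 and 6. Each group thus had 1 mouse at the level of most of the other group. The fitted fold was 0.786 with a 95% interval of 0.457 to 1.35. That interval from 3 against 3 mice holds both a fall and a rise, and these data do not show that the groups were alike. With a library left out, the log2 fold change of Cybb ran from -0.74 to -0.134. Cyba was at 30.9, 44.2 and 53.3 CPM with vehicle and 44.4, 29.1 and 26.8 with zileuton, a fold of 0.781 (interval 0.536 to 1.14).

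The cytosolic subunits had the same arrangement of mice. Ncf1 was at 37.5, 57.4 and 59.4 CPM with vehicle and 57.8, 39.2 and 38.4 with zileuton (fold 0.878, interval 0.629 to 1.23). Ncf4 was at 5.18, 6.18 and 6.49 CPM with vehicle and 5.89, 4.49 and 4.29 with zileuton (fold 0.822, interval 0.618 to 1.09). In both, vehicle replicate 2 was the lowest of its group and zileuton replicate 2 the highest.

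Rac2 was at 25.5, 24.6 and 34 CPM with vehicle and 32.6, 18.8 and 18.5 with zileuton (fold 0.832, interval 0.574 to 1.21). Hvcn1, the only member with a fold above 1, was at 18.2, 26.2 and 35.5 CPM with vehicle and 31.6, 27.4 and 23.1 with zileuton (fold 1.03, interval 0.717 to 1.47). Nox4 was near the limit of counting, at 0.377, 0.515 and 0.25 CPM with vehicle and 0.362, 0.314 and 0.279 with zileuton, from 7 to 17.96 estimated counts a library, and its interval was the widest, from 0.427 to 1.61.

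The mice kept much the same order across the 7 genes. Zileuton replicate 2 was the highest of its group and zileuton replicate 6 the lowest in all 7, while vehicle replicate 2 was the lowest of its group in 5. The summed CPM of the 7 was 131, 186 and 216 with vehicle and 199, 134 and 124 with zileuton. The activated macrophage markers gave sums of 396, 845 and 939 against 659, 556 and 397, and the microglia markers 568, 755 and 840 against 852, 700 and 642. Zileuton replicate 2 had the highest sum of its group in both of these lists and vehicle replicate 2 the lowest. In other marker lists some genes differed between the drug groups. The monocyte sums overlapped, at 28.9, 42.7 and 42.2 CPM with vehicle and 45, 36.1 and 31.3 with zileuton. Of the 5 monocyte markers 4 had a log2 fold change below 0 (median -1.11), and Chil3 (-1.59, unadjusted p = 0.00808) and Ly6c2 (-1.11, unadjusted p = 0.0223) were lower with zileuton without overlap (edgeR). Of the 5 red cell markers all were below 0 (median -0.52), and the 4 globin genes were lower without overlap at an unadjusted p under 0.05 (edgeR), with sums over the 5 of 342, 216 and 283 CPM against 195, 206 and 191. No gene of the monocyte and red cell lists passed after adjustment (adjusted p of 0.713 or more). Among 5 endothelial markers, 2 were higher with zileuton at an unadjusted p under 0.05 (edgeR), and 2 were higher without overlap. Among 6 neuronal markers, 1 was lower at such a p, and 1 was lower without overlap. No endothelial or neuronal marker passed after adjustment. The part of these cells in the values of the oxidase genes was not tested. Without zileuton replicate 2, 4 of the 7 members had an unadjusted p under 0.05 (edgeR; Cybb 0.0412, Cyba 0.0194, Ncf4 0.0374, Rac2 0.00598), all lower with zileuton. Of 17632 genes tested without that library, 1909 had such a p in either direction. The 4 members' log2 fold changes were -0.44 to -0.74. None passed after adjustment even then (adjusted p = 0.338 to 0.446). Without vehicle replicate 2, Cyba had an unadjusted p of 0.036 (edgeR adjusted p = 0.784) and the other 6 did not reach 0.05.

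Per length, the vehicle mice had Cyba at 140 ± 31.2 TPM, Rac2 at 37.5 ± 11.1, Ncf1 at 36.6 ± 6.39, Hvcn1 at 21.6 ± 6.06, Ncf4 at 10.2 ± 0.816, Cybb at 8.36 ± 2.87 and Nox4 at 0.523 ± 0.244 (SD, n = 3 for each). Rac2 overlapped with Ncf1, Rac2 with Hvcn1 and Ncf4 with Cybb. With zileuton the levels were 117 ± 36.2 for Cyba, 34.9 ± 8.48 for Ncf1, 24.3 ± 12.3 for Rac2, 24.1 ± 1.72 for Hvcn1, 8.42 ± 2.43 for Ncf4, 7.07 ± 3.13 for Cybb and 0.267 ± 0.085 for Nox4 (SD, n = 3 for each). Relative to Cyba in the same library, the log2 ratio of Hvcn1 was higher with zileuton by 0.47, from -2.85 to -2.6 with vehicle and from -2.6 to -2 with zileuton, without overlap before rounding (two-sided exact permutation p = 0.1, 0.6 after adjustment over 6). The other 5 ratios overlapped, and that of Cybb differed by 0.01 (exact p = 1).

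Of the 6 tested genes of the oxidase family, of 24 tested upstream genes, of 14 tested genes for superoxide handling and of 9 for NADPH supply, none passed with zileuton. Their median log2 fold changes were -0.08, 0.00, -0.15 and -0.01. Of the 14 superoxide genes 11 had a log2 fold change below 0, beside 49.3% of all genes. At an unadjusted p under 0.05 (edgeR, 6.83% of all genes in either direction), 2 superoxide genes were lower and 2 upstream genes higher. No oxidase family or NADPH gene reached it. Of 21 other genes tested here that are named for the injury comparison from those upstream, superoxide and NADPH lists or for likeness to Cybb, the log2 fold changes ran from -0.81 for Siglec1 to 0.31 for Prkcb, which were the only 2 of the 21 at an unadjusted p under 0.05, and the smallest adjusted p was 0.713 (edgeR).

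The genes whose profile was most like that of Cybb were taken as those with the smallest root mean square difference from it in log2 CPM (prior count of 2), centred on the batch mean, over the 12 libraries, among 16515 genes tested in both batches. They were Ms4a14 (0.242), Siglec1 (0.254), the noncoding 4930430E12Rik (0.266), Sirpb1c (0.273) and Runx3 (0.289). Siglec1, a macrophage sialic acid receptor, had 17, 16 and 16 counts in sham and 581, 802 and 600 after TBI. Ms4a14, a membrane-spanning protein gene, had no counts in sham and 68, 59 and 72 after TBI, and Runx3, a transcription factor of lymphoid and myeloid cells, none in sham and 40, 71 and 55 after TBI. With 4 of the 5 at 0 or 1 count in every sham library, their sham level here is set largely by the prior count, so their closeness to Cybb, which had 24 to 33 counts in sham, depends on it. Sirpb1c belongs to a family of near-identical copies, so its counts are uncertain. Among the members the difference from Cybb was 0.573 for Rac2, 0.655 for Cyba, 0.657 for Ncf4, 0.817 for Hvcn1, 0.931 for Ncf1 and 1.32 for Nox4, with Rac2 at rank 111 and Nox4 at rank 963 of the genes compared. The 12 libraries come from 2 batches and their marker levels move together with these genes, so likeness is a description.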

How the data were processed

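RNA-seq of cortex from 12 mice was used. The authors deposited whole-number counts per gene with FPKM in 2018 and, in 2022, estimated counts, of which 13.7% were not whole and were rounded, with TPM. The labels' processing notes name HISAT2, featureCounts, Subread, DESeq2 and GRCm39 without versions or roles. Columns of the authors' own comparisons were not used. The 2022 headers number mice 2, 3 and 6, which match groups but no single label. Of counts from 1 to 20 in the 2018 libraries, 62.3 to 64.4% were even, so reads of a pair may be counted apart and counting precision is lower than the counts imply. Symbols matched 34808 of 35697 and 52081 of 55637 identifiers. Each batch was fitted alone in R 4.3.3 with edgeR 4.0.16 (filterByExpr, TMM, glmQLFit, glmQLFTest, Benjamini-Hochberg); intervals of a fold use its SE and the fit's degrees of freedom. FPKM and TPM as deposited were used for ratios to Cyba (exact permutation test) and for limma 3.58.1 on log2(value + 1). Alternatives were DESeq2 1.42.0 and its size factors, library totals, robust dispersion, a filter of 10 counts per library or none, limma with a pseudocount of 1 or 0.1 above a mean of 0.5, a two-sided equal-variance two-sample test, a replicate block, removal of a length trend, both together, and each library left out. Scripts were tested on simulated counts. Genes named are the 7 members, tested oxidase family genes, up to 5 with the largest rise and 3 with the largest fall in each other list among called genes without overlap, up to 3 markers a list, and the 5 most like Cybb; Sod1, Sod2, Nos2, Tkt, Gtf2ird2, Tctn1 and most monocyte, neutrophil and red cell genes and P2ry12 were added after values were seen. Some genes are not reported here. Members and lists were chosen with earlier results of these data known. Figures used matplotlib.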

Additional observations from a re-analysis of the deposited data

How the results depend on the processing

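The 7 members passed after TBI in every alternative that kept them (Nox4 fell under the mean of 0.5 in 3) and with each library left out, and no member passed with zileuton in any. The number of genes called after TBI was 5479, and 2625 with the equal-variance test on FPKM; with a library left out it was 3848 to 4956. With zileuton, edgeR called 0 genes, DESeq2 28, edgeR without the filter 4, and limma 4 with a pseudocount of 1 and 3 with 0.1, and the cause was not tested. Samples with the same number did not deviate together (correlations of -0.0944 to -0.0228 in 2018 and -0.282 to 0.0628 in 2022), so no pairing by number was seen. With 3 libraries a group, centred on their own mean, this check cannot exclude a pairing. The largest correlation in 2022 was 0.313, between vehicle replicate 2 and zileuton replicate 6. A replicate block gave 4337 genes and 7 members called after TBI, 4144 and 7 with the length trend also removed, and 0 genes and 0 members with zileuton.

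With zileuton some differences changed sign. In the deposited TPM, the difference in log2 ratio to Cyba was -0.03 for Ncf4, -0.431 for Rac2 and -0.618 for Nox4. With CPM over implied length, this difference became 0.068 for Ncf4, 0.054 for Rac2 and 0.154 for Nox4. With a library left out it ran from -0.132 to 0.162 for Cybb and from -0.206 to 0.218 for Ncf4. The log2 fold change of Rac1 was 0.012 with the length trend removed, with and without the block, and that of Rac3 was 0.003 with the equal-variance test and 0.085 and 0.065 with the length trend removed, without and with the block. With a library left out the log2 fold change ran from -0.172 to 0.296 for Hvcn1, -0.489 to 0.021 for Nox4, -0.002 to 0.468 for Noxo1, -0.222 to 0.057 for Rac3 and -0.159 to 0.041 for Cybc1. Depth limits Nox4 most, at 7 to 48 counts a library.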
